A study of Caenorhabditis elegans with 12 samples.

Results

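The genes described here are 6 families named for sperm: the major sperm protein genes (msp), the sperm-specific families ssp and ssq, the nematode-specific peptide family group D (nspd), the spermatogenesis-defective genes (spe) and fer-1. Members were the protein-coding genes whose name in the deposited table begins with one of these family names and a number, 79 of 46726 genes in all. Of the 79, 31 were msp, 21 spe, 12 ssp, 10 nspd, 4 ssq and 1 fer, and 77 had at least 1 read in the 12 libraries. The rule used names only and no measured value, though it was set with earlier results of these data known. The libraries were made from whole Caenorhabditis elegans at day 7 of adulthood, grown on plates seeded with Escherichia coli OP50. There were 6 libraries of the DNA-repair mutant TG1660, which carries xpf-1(tm2842) and is called xpf-1 here, and 6 of N2, the laboratory wild type. Each library pools many age-synchronised worms, and the labels do not give their sex. The mutation is carried by every cell of the animal from birth, so a difference in the adult cannot be assigned to a tissue or a time. The library titled N2 replicate 6 bears a wild-type strain label and a mutant genotype label, and it was placed in N2 by its title and strain. The labels name triplicates and list 6 libraries in each group, so p-values here measure only how these libraries vary, and that variation may be technical in part.

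Sperm of nematodes crawl rather than swim, and the major sperm protein is the cytoskeletal protein that drives this movement. The same protein is released by sperm as a signal that starts oocyte maturation and contraction of the gonadal sheath. A C. elegans hermaphrodite makes its sperm in the last larval stage, stores them, and then switches its germ line to oocytes, so that self-sperm run out during adult life. Sperm genes are transcribed in developing spermatocytes, and mature sperm are transcriptionally silent. The spe and fer genes were found through sterile mutants, and some of them also act in other tissues.

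Total counts ran from 18407182 to 22817135 reads per library. The transcript of xpf-1 itself had 213 to 304 reads in the xpf-1 libraries and 1192 to 1758 reads in the N2 libraries, with 1468 in N2 replicate 6, so its level in that library lay in the N2 range. Of 14248 genes tested with edgeR's quasi-likelihood test, 30.1% were called higher and 29.6% lower in xpf-1 at a Benjamini-Hochberg adjusted p of 0.05, so a call of a single gene is common in this comparison. The median log2 fold change of all genes tested was 0.03. Calls below use this test and threshold. Each fold change divides xpf-1 by N2 and is followed by an approximate standard error (SE). This SE is the absolute log2 fold change divided by the square root of the test's F statistic. CPM stands for counts scaled to library size after TMM adjustment.

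The summed levels of the short sperm-protein families and of the spe family went different ways, though single spe genes were divided. Summed over its 31 genes, the msp family stood at 19.4 ± 9.84 CPM in xpf-1 and 8.92 ± 11.4 CPM in N2 (SD, n = 6 each). In xpf-1 the 6 libraries held 8.87, 30.7, 13.3, 19.9, 12.1 and 31.8 CPM, for replicates 1 to 6. In N2 they held 1.499, 7.41, 3.59, 31.8, 3.02 and 6.23 CPM. N2 replicate 4 alone reached the level of the highest xpf-1 libraries, and the other 5 N2 libraries all lay below every xpf-1 library. The ratio of the mean levels was 2.18, and 4.47 without N2 replicate 4, whose 606 msp reads were 58.6% of the msp reads of the group. The standard deviation in N2 exceeded the mean, and a sum over chosen members was given no test. In bulk RNA, fewer cells of a type and less RNA per cell cannot be told apart.

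The nspd, ssq and ssp families shared part of this pattern. The nspd sum was 7.96 ± 2.96 CPM in xpf-1 and 5.97 ± 3.16 CPM in N2, where replicate 4 held 11.8 CPM and the other libraries 2.97 to 6.51 CPM. The ssq sum was 6.998 ± 2.18 CPM in xpf-1 and 4.23 ± 1.94 CPM in N2, again with replicate 4 as the highest N2 library at 7.55 CPM. The groups overlapped in both families, for ssq only because N2 replicate 4 exceeded 4 of the xpf-1 libraries. The ssp sum differed less, at 13.5 ± 2.60 CPM in xpf-1 and 10.6 ± 1.2 CPM in N2, with ranges of 9.32 to 17.5 and 9.06 to 12.1 CPM (SD, n = 6 each). The spe sum was lower in all 6 xpf-1 libraries, at 72.2 to 86.6 CPM, than in all 6 N2 libraries, at 104.5 to 120.5 CPM. Its most-read member, spe-39, held a large part of that sum, at 33.6 ± 2.79 CPM in xpf-1 and 55.3 ± 5.47 CPM in N2. By gene, 11 of the 21 spe genes had more reads in xpf-1 and 10 had more in N2, and of the 9 too low to test 7 had more in xpf-1. Among all protein-coding genes with any read 63% had more in xpf-1, and 72.7% of those with totals of 1 to 279 reads.

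**Figure D1:**
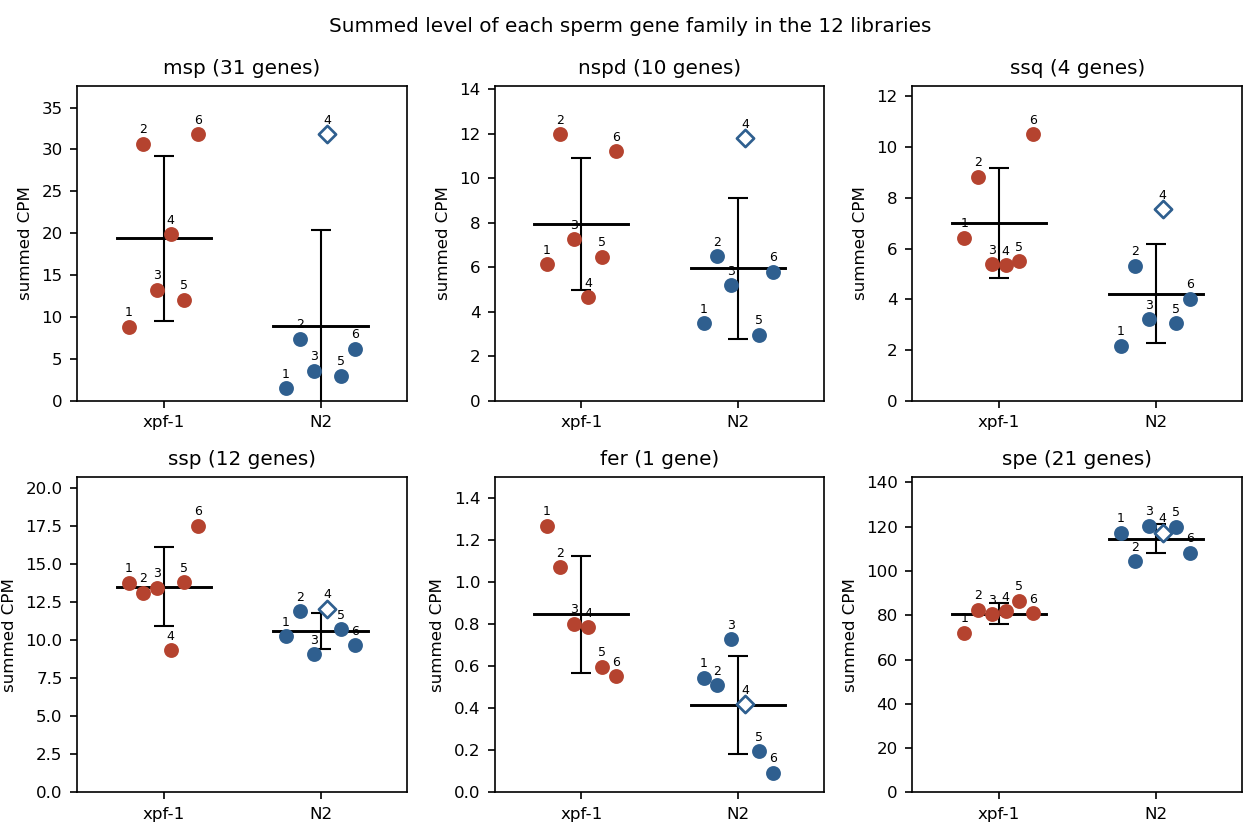
Summed CPM of each sperm gene family (y axis) in the 6 xpf-1 and the 6 N2 libraries (x axis), with replicate numbers beside the points, the mean as a line and the SD as bars, cut at 0. The open diamond is N2 replicate 4, which at 31.8 CPM stood with the highest xpf-1 libraries for msp, while the spe sums of the groups did not overlap.

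Which members could be tested was set by their low counts. A gene was tested when it reached 0.491 CPM, or 10 reads in a library of median size, in at least 6 of the 12 libraries, which 33 of the 79 members did. Of these, 15 reached it in all 6 libraries of both groups, and 9 in all 6 xpf-1 libraries but not in all 6 N2 libraries. The other 9 reached it in some libraries of both groups and in all 6 of neither. None of the 10 tested msp members reached it in all 6 N2 libraries, so members with high xpf-1 levels entered the test more readily, and counts over the tested members are no evidence of direction. Of the 33, 5 were called higher (fer-1, spe-11, spe-46, ssp-35 and ssq-2) and 7 lower, all of them spe genes. The shares among all genes tested were 30.1% and 29.6%, so neither count exceeds what the comparison gives for genes at large. With library totals in place of TMM factors the split was 9 higher and 5 lower (35.3% and 24.7% of all genes), and with upper quartile factors 10 and 5 (36% and 24.7%). Without N2 replicate 4 it was 19 higher and 6 lower, where 29% and 28.6% of all genes tested were called. That library was the highest of N2 for 27 of the 28 msp genes with an N2 read, so leaving it out raises their fold changes. A further 44 members had reads but too few for the test, and msp-74 and ssp-9 had 0 of 246288516 reads, which allows up to 0.0122 CPM. Such limits cover counting error only.

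**Figure D2:**
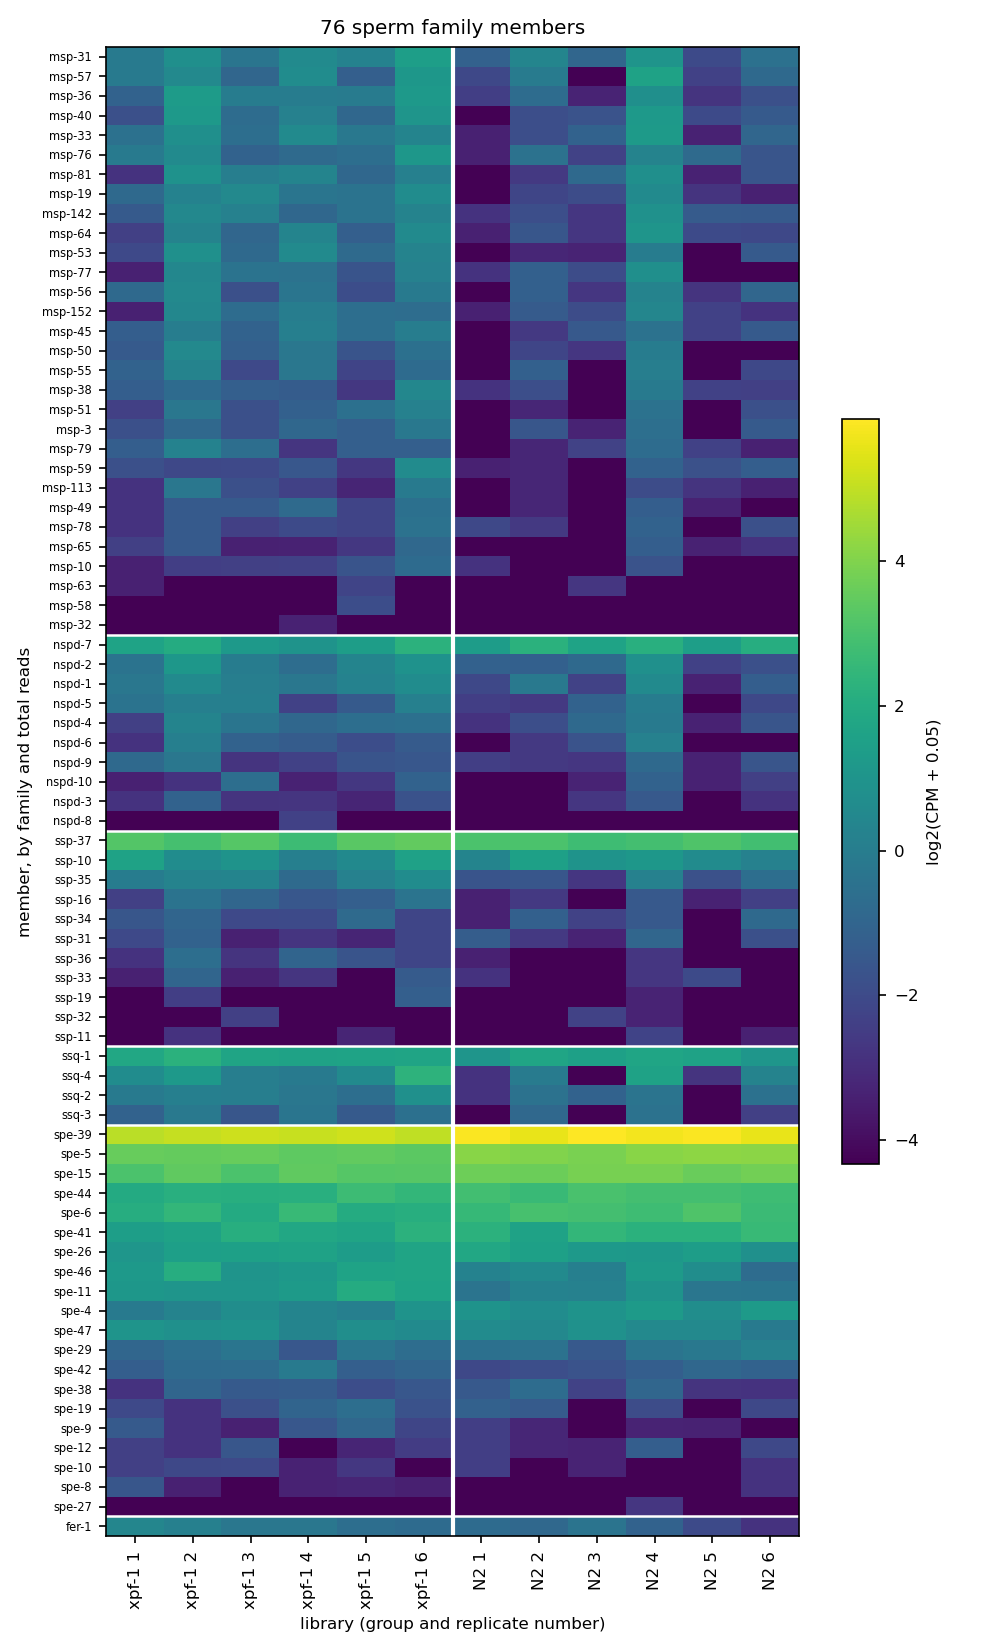
Level of 76 members with a read (rows, by family and total reads) in the 12 libraries (columns, xpf-1 left and N2 right), as log2(CPM + 0.05) in colour. The msp rows are bright in N2 replicate 4 and in xpf-1 replicates 2 and 6, while the most-read spe rows are brighter in N2.

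The msp genes encode near-identical proteins, and the sources used here do not say how reads that fit several copies were counted, so the split of reads among copies is uncertain and the family is best read as a whole. All 31 lie on chromosome II (13) or IV (18), where each has another sperm family member within 100 kb. On chromosome IV, 15 members (9 of them msp) lie between 4994325 and 5316944 (WBcel235), with 1145 reads in the xpf-1 libraries and 439 in the N2 libraries. A second group of 13 members, 7 of them msp, lies between 9688982 and 9934629 and had 1507 reads in xpf-1 and 926 in N2. On chromosome II, 8 members from 4785861 to 4933449 had 782 reads in xpf-1 and 367 in N2. Of the 79 members, 0 lie on chromosome X, which holds 13.8% of the protein-coding genes of the table.

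Each of the 30 msp genes with a read had more reads over the 6 xpf-1 libraries than over the 6 N2 libraries. Among protein-coding genes with read totals in the range of these msp genes (1 to 279), 72.7% did. The msp counts come from the same 12 libraries and may share reads, so they are not 30 separate observations. From 27 to 29 msp genes were detected in each xpf-1 library, against 13 to 25 in the N2 libraries other than replicate 4, which had 27. The family totalled 2508 reads in xpf-1 and 1034 in N2. In N2, replicate 4 was the highest of the 6 libraries for 27 of the 28 msp genes with a read there, while it was the highest for 15.9% of protein-coding genes with any N2 read. In xpf-1, replicate 6 was the highest for 14 msp genes and replicate 2 for 12.

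The most-read msp gene was msp-31 (WBGene00003429, chromosome II, 4916179 to 4916562, WBcel235). It had 16 to 62 reads in the xpf-1 libraries with a median of 25.5, and 4 to 37 reads in the N2 libraries with a median of 11.5. Its ranges overlapped through N2 replicate 4 and replicate 2, which had 37 and 22 reads. The log2 fold change was 0.83 ± 0.44, and it did not pass edgeR's quasi-likelihood test (adjusted p 0.116). Its annotated span overlaps aagr-2, so reads may be shared. For msp-57 the 6 xpf-1 libraries had 7 to 50 reads (median 24.5), while N2 replicate 4 had 57 reads and the other N2 libraries at most 16. For msp-36 the xpf-1 libraries had 9 to 55 reads (median 19.5), and the N2 libraries 1 to 32 (median 4). N2 replicate 4 held the 32 reads and no other N2 library more than 10. The pattern was sharpest in msp-19, with 11 to 37 reads in xpf-1, 28 reads in N2 replicate 4 and 0 to 4 reads in the other N2 libraries. msp-53 had 4 to 37 reads in xpf-1, 18 in N2 replicate 4 and at most 7 in the other N2 libraries. The other tested genes repeated it. msp-33 had 13 to 36 reads in xpf-1, 45 in N2 replicate 4 and at most 10 in the other N2 libraries. msp-142 had 7 to 29 in xpf-1, 34 in that library and at most 7 in the others. msp-81 had 2 to 40 in xpf-1, 32 in N2 replicate 4 and at most 10 in the others.

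In msp-76 and msp-152, too, N2 replicate 4 was the highest N2 library. msp-76 had 9 to 50 reads in xpf-1 (median 15), 22 in N2 replicate 4 and at most 12 in the other N2 libraries. msp-152 had 1 to 28 in xpf-1 (median 13), 24 in N2 replicate 4 and at most 6 in the others. Of the msp genes not tested, the 5 with the most reads were msp-40, msp-64, msp-77, msp-56 and msp-45. msp-40 had 5 to 49 reads in xpf-1, 43 in N2 replicate 4 and at most 7 in the others, and msp-64 had 3 to 34 in xpf-1, 38 in N2 replicate 4 and at most 5 in the others. The ranges of msp-77, msp-56 and msp-45 in xpf-1 were 1 to 28, 4 to 30 and 8 to 23 reads, with 32, 22 and 13 reads in N2 replicate 4 and at most 7, 10 and 7 in the other N2 libraries. In msp-45 the other 5 N2 libraries all lay below every xpf-1 library.

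None of the 10 tested msp genes was called by edgeR's quasi-likelihood test with all 12 libraries, with log2 fold changes of 0.57 ± 0.82 (msp-57) to 2.02 ± 0.82 (msp-53) and 2 of them at an unadjusted p under 0.05. Without N2 replicate 4 the same test called all 10 higher, from 1.29 ± 0.38 for msp-31 (edgeR adjusted p 0.00446) to 3.31 ± 0.70 for msp-53 (0.00043). The edgeR call of each of the 10 tested msp genes thus changed with that library. It was the highest N2 library for each of them, so leaving it out was bound to raise their fold changes. The count of 10 is therefore no evidence of direction, and 29% of all genes tested were called higher in that fit. The call also depended on the tool: with all 12 libraries limma-voom called 7 of the 10 higher, where it called 30.5% of all genes higher and 29.9% lower, and DESeq2's Wald test called 0. Leaving out xpf-1 replicate 1, the lowest xpf-1 library, called msp-53 and msp-36 of the 10 higher (edgeR adjusted p 0.0221 and 0.0492), and upper quartile factors called msp-53 (0.0447). Of the msp genes not tested, 17 of 20 had reads in all 6 xpf-1 libraries and 1 in all 6 N2 libraries. In a fit with no low-count filter, where 17.6% of all genes with a read were called higher and 17.4% lower, 10 of 30 msp genes were called higher and 0 lower. The untested genes among them were msp-45, msp-50, msp-51, msp-79, msp-113 and msp-49. The authors' deposited table had msp-45, msp-113 and msp-49 as higher at an adjusted p under 0.05, where 22.6% of all its genes were higher and 21.5% lower. At the low end, msp-58 had 4 reads in 1 xpf-1 library, msp-32 had 1 read in 1 xpf-1 library, and both had 0 of 122781872 reads in N2, which allows up to 0.0244 CPM.

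**Figure D3:**
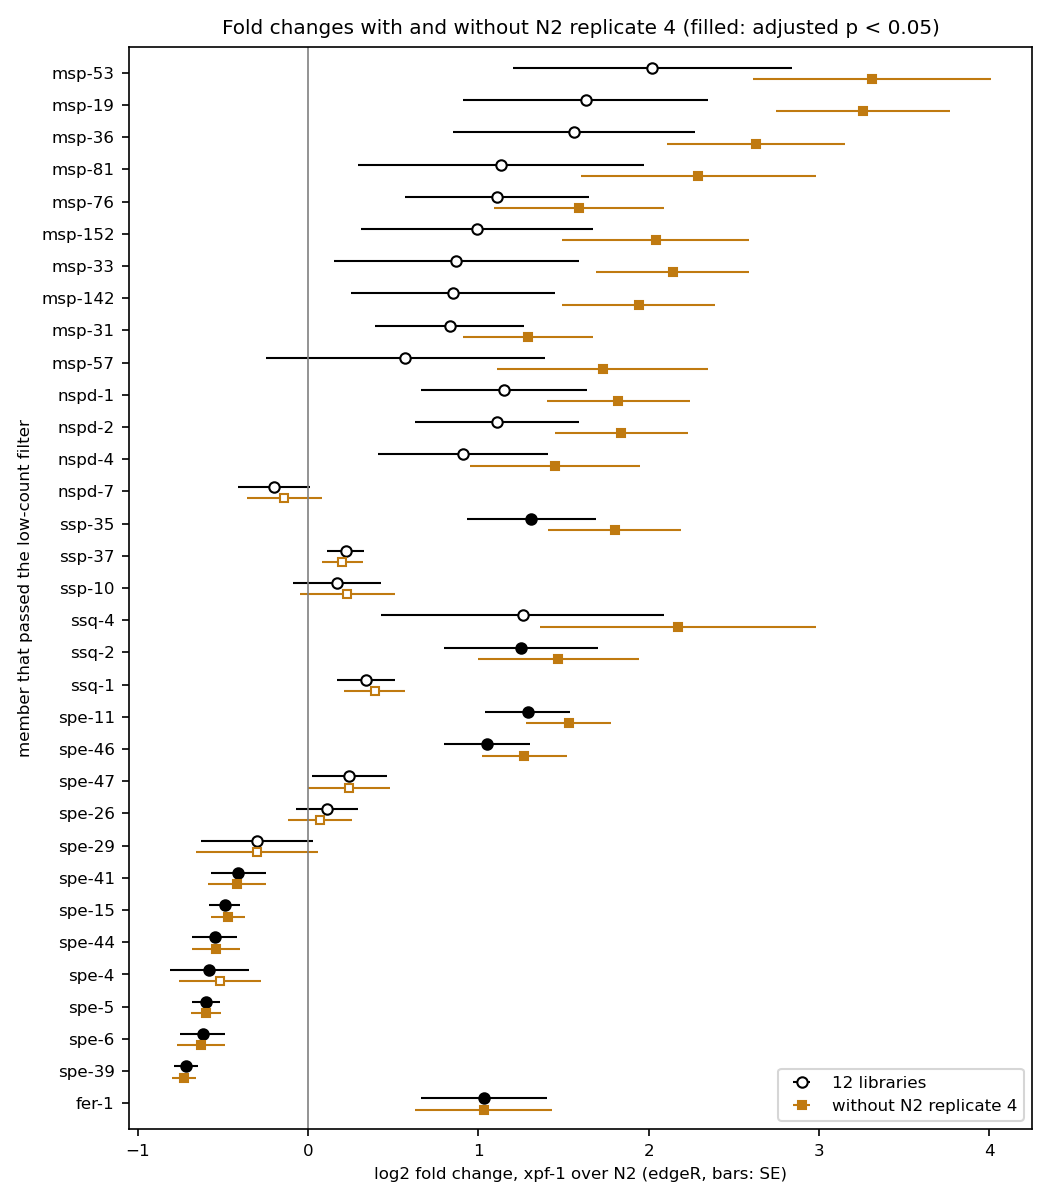
Log2 fold change, xpf-1 relative to N2, with its approximate SE (x axis) for the 33 tested members (y axis), from all 12 libraries (black circles) and without N2 replicate 4 (orange squares), filled where the adjusted p was under 0.05. The 10 msp genes change from open to filled when that library is left out, while the spe genes other than spe-4 keep their symbols.

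The nspd genes encode short peptides of a nematode-specific family. The most-read of them, nspd-7, did not follow the msp pattern. It had 38 to 115 reads in xpf-1 (median 57) and 54 to 90 in N2 (median 71), and its log2 fold change of -0.20 ± 0.21 did not pass the test (edgeR adjusted p 0.425). Per length it was also the highest of its family, at a mean RPKM of 9.47 over the 12 libraries, against a family median of 1.12. nspd-2 had 12 to 45 reads in xpf-1 (median 21), 33 reads in N2 replicate 4 and 3 to 10 reads in the other N2 libraries. nspd-1 had 16 to 36 reads in xpf-1 (median 21), 28 in N2 replicate 4 and at most 15 in the others. nspd-4 had 3 to 26 reads in xpf-1 (median 13), 17 in N2 replicate 4 and at most 10 in the others, and did not pass (0.91 ± 0.50, edgeR adjusted p 0.118). In reads, the groups of nspd-2 and nspd-1 overlapped through N2 replicate 4 only. In CPM, nspd-1 overlapped through N2 replicate 2 as well, at 0.849 CPM against 0.785 CPM in xpf-1 replicate 4. Both genes did not pass (log2 fold changes 1.11 ± 0.48 and 1.15 ± 0.49, edgeR adjusted p 0.0536 and 0.0517). Without N2 replicate 4, their highest N2 library, nspd-1, nspd-2 and nspd-4 were called higher, by 1.82 ± 0.42, 1.84 ± 0.39 and 1.45 ± 0.50 (edgeR adjusted p 0.000443, 0.000143 and 0.0138). These genes also passed without xpf-1 replicate 1 (0.0463, 0.0345 and 0.0373), nspd-2 without xpf-1 replicate 4 (0.0319) and nspd-1 without N2 replicate 2 (0.0374). With library totals only nspd-1 and nspd-2 passed too (0.037 and 0.0424), and likewise under upper quartile scaling (0.0411 and 0.0412). Both passed with limma-voom (0.00267 and 0.00974) and with no low-count filter (0.0053 and 0.0043), and nspd-2 with DESeq2's Wald test (0.0226). Of the 6 untested members, nspd-5, nspd-6, nspd-9, nspd-10 and nspd-3 had 22 to 93 reads in xpf-1 and 10 to 35 in N2, and nspd-8 had 3 reads in 1 xpf-1 library and 0 in N2. N2 replicate 4 was the highest N2 library for 8 of the 9 nspd genes with a read there.

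The ssp genes encode small sperm proteins of the MSP-domain class. Of 12 members, 3 were tested and ssp-35 was called higher. It had 20, 25, 25, 11, 20 and 37 reads in the xpf-1 libraries and 6, 5, 2, 21, 5 and 13 reads in the N2 libraries, for replicates 1 to 6. N2 replicates 4 and 6 overlapped the xpf-1 range. Its log2 fold change was 1.31 ± 0.38 (edgeR adjusted p 0.00396). The span of ssp-35 overlaps that of the tubulin gene tbb-6, so some of its reads may belong to that gene. ssp-37 was by far the most-read ssp gene, with 135 to 261 reads in xpf-1 (median 189) and 129 to 181 in N2 (median 147). Its log2 fold change of 0.22 ± 0.11 did not pass (edgeR adjusted p 0.0975), though it did without xpf-1 replicate 4, at 0.29 (0.0247), with library totals only (0.0294) and with upper quartile factors (0.0282). ssp-10 had 21 to 69 reads in xpf-1 and 23 to 50 in N2 and did not pass (0.17 ± 0.26, edgeR adjusted p 0.592). Of the untested members, ssp-36 had 35 reads in xpf-1, with some in each library, and 3 in N2. ssp-16 had 58 reads in xpf-1 and 13 in N2. Both were called higher with no low-count filter (edgeR adjusted p 0.00285 and 0.00609). ssp-34 had 38 and 28 reads in xpf-1 and N2, ssp-31 had 21 and 25, and ssp-33 had 22 and 8. ssp-19, ssp-32 and ssp-11 had at most 12 reads in either group.

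The 4 ssq genes, a sperm-specific family on chromosome IV, all had more reads in xpf-1 than in N2, as did 63% of protein-coding genes with any read. ssq-2 was called higher, with 11 to 41 reads in xpf-1 (median 20) and 0 to 14 in N2 (median 10), a log2 fold change of 1.25 ± 0.45 (edgeR adjusted p 0.0193). The highest N2 value of 14 occurred in replicates 4 and 6, and only xpf-1 replicate 5 lay below it. The call was lost without xpf-1 replicate 6, which held the 41 reads (1.02, edgeR adjusted p 0.0579). ssq-4 varied most, with 18 to 117 reads in xpf-1 and 0 to 56 in N2. Its log2 fold change of 1.26 ± 0.83 did not pass with all libraries (edgeR adjusted p 0.22) and did without N2 replicate 4, its highest N2 library (2.17 ± 0.81, 0.0438). ssq-1 had 57 to 100 reads in xpf-1 and 44 to 61 in N2, so its group ranges met at 57 to 61 reads, and it did not pass (0.34 ± 0.17, edgeR adjusted p 0.0785). With library totals only and with upper quartile factors ssq-1 did pass (0.0353 and 0.0336). ssq-3, untested, had 69 reads in xpf-1 and 25 in N2.

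The spe genes with the most reads were lower in xpf-1. spe-39, which encodes a vesicle-trafficking protein that acts in many tissues beside sperm, fell by 0.72 ± 0.07 log2 units (edgeR adjusted p 9.23e-11). It had 29.9 to 37.5 CPM in xpf-1 and 48.8 to 61.9 CPM in N2. spe-5, a B subunit of the vacuolar proton pump, fell by 0.60 ± 0.08, with 10.3 to 11.9 CPM in xpf-1 and 14.6 to 18.7 CPM in N2 (edgeR adjusted p 1.57e-07). spe-15, a myosin VI that sorts cell contents away from budding spermatids, fell by 0.49 ± 0.09, with 8.11 to 10.8 CPM in xpf-1 and 12.2 to 14.4 CPM in N2 (edgeR adjusted p 3.54e-05). In these 3 genes all 6 xpf-1 libraries lay below all 6 N2 libraries, as they did for 20.3% of all genes tested. The span of spe-5 overlaps ift-20 and that of spe-15 overlaps gst-25, so reads may be shared. Per length, spe-39 was the highest of the 79 members, at a mean RPKM of 23.5 over the 12 libraries.

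Of the tested genes that act in spermatocytes, spe-44, spe-6 and spe-4 were lower too, and spe-26 did not pass. spe-44, a transcription factor that turns on sperm genes in spermatocytes, had 82 to 131 reads in xpf-1 (median 93) and 108 to 155 in N2 (median 148). It fell by 0.55 ± 0.13 (edgeR adjusted p 0.000383), with group ranges that overlapped. spe-6, a casein kinase 1-like kinase needed for MSP assembly, had 73 to 123 reads in xpf-1 (median 95) and 129 to 177 in N2 (median 136.5). In reads its groups did not overlap, though in CPM they did, and it fell by 0.62 ± 0.13 (edgeR adjusted p 0.000134). spe-4, a presenilin of the organelle that carries MSP fibres, fell by 0.58 ± 0.23, with 19 to 45 reads in xpf-1 (median 24.5) and 27 to 51 in N2 (median 39) (edgeR adjusted p 0.028). The call of spe-4 was lost without xpf-1 replicate 1, 2 or 5 (edgeR adjusted p 0.0781, 0.0513 and 0.0626) and without N2 replicate 4 or 6 (0.0669 and 0.0683). It was also lost with library totals only (0.0566) and with upper quartile factors (0.0566). spe-26, a kelch-repeat protein of spermatocytes, did not pass, with 44 to 75 reads in xpf-1 and 37 to 77 in N2 (0.11 ± 0.18, edgeR adjusted p 0.636).

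Genes that act on the mature sperm or at fertilization went both ways. spe-11, a sperm-supplied protein that the egg needs for its activation, had 45, 43, 42, 49, 73 and 72 reads in the xpf-1 libraries and 16, 20, 21, 36, 16 and 16 in the N2 libraries, for replicates 1 to 6. All 6 xpf-1 libraries lay above all 6 N2 libraries, as for 17.9% of all genes tested, and the highest N2 library was again replicate 4. spe-11 rose by 1.29 ± 0.25 (edgeR adjusted p 3.91e-05). spe-46 rose by 1.05 ± 0.25 (edgeR adjusted p 0.000732), with 41 to 89 reads in xpf-1 (median 53) and 12 to 45 in N2 (median 25.5), where replicate 4 held the 45. spe-41, a TRPC-type channel that sperm need to fertilize, fell by 0.41 ± 0.16, with 57 to 114 reads in xpf-1 (median 68) and 52 to 129 in N2 (median 100) (edgeR adjusted p 0.029). The call of spe-41 was lost without xpf-1 replicate 1, 2 or 5 (edgeR adjusted p 0.0845, 0.0651 and 0.0599) and without N2 replicate 3 or 6 (0.063 and 0.0874). It was lost as well with library totals only (0.0672) and with upper quartile factors (0.0733). spe-47, which encodes an MSP-domain protein, had 24 to 41 reads in xpf-1 and 19 to 34 in N2 and did not pass (0.24 ± 0.22, edgeR adjusted p 0.361). spe-29, a gene of sperm activation, had 6 to 16 reads in xpf-1 and 6 to 23 in N2 and did not pass either (-0.30 ± 0.33, edgeR adjusted p 0.445).

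Genes of fertilization and other spe genes with few reads were not tested. spe-9, the EGF-repeat protein on the sperm surface, had 29 reads in xpf-1 and 6 in N2. spe-42 had 68 reads in xpf-1 and 39 in N2, and spe-38 had 37 and 33. Of the sperm activation genes upstream, the kinase gene spe-8 had 10 reads in xpf-1 and 2 in N2, spe-12 had 15 and 16, and spe-19 had 37 and 23. spe-27 had 2 reads in N2 replicate 4 and 0 of 123506644 in xpf-1, which allows up to 0.0243 CPM. spe-10 had 14 reads in xpf-1 and 6 in N2. None of these 8 genes was called in edgeR with no low-count filter, where spe-9 came nearest (adjusted p 0.0515). The authors' deposited table called spe-9 higher, with a log2 fold change of 0.82 and an adjusted p of 0.0325.

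fer-1 encodes a ferlin that fuses sperm organelles with the cell surface during activation. It had 27, 23, 17, 16, 11 and 13 reads in the xpf-1 libraries and 12, 9, 14, 8, 4 and 2 in the N2 libraries, for replicates 1 to 6. The groups overlapped between 11 and 14 reads. Unlike the msp genes, fer-1 was not high in N2 replicate 4. It rose by 1.03 ± 0.37 (edgeR adjusted p 0.0169), and the call was lost without xpf-1 replicate 1 (0.0532), N2 replicate 5 (0.0518) or N2 replicate 6 (0.0533).

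Many sperm genes outside the 6 families shared the high values in N2 replicate 4. Of 24 such genes, that library was the highest of N2 for 17, as it was for 15.9% of protein-coding genes with any N2 read. Their sum there was 133.7 CPM, against 95.2 to 123.8 CPM in xpf-1 and 104.6 to 128.7 CPM in the other N2 libraries. This sum does not show the pattern. Most of it came from zipt-7.1 (62.6 CPM), elt-1 (20.35 CPM) and cpb-1 (19.4 CPM), and N2 replicate 4 was the highest N2 library for none of them. gipc-2, for example, had 16 to 66 reads in xpf-1, 69 in N2 replicate 4 and 4 to 17 in the other N2 libraries. The sperm phosphatase genes gsp-3 and gsp-4 had 93 and 67 reads in xpf-1 and 34 and 15 in N2. Of the 24, 11 were tested, with 2 higher, 2 lower and a median log2 fold change of 0.46, and 7 were higher without N2 replicate 4. Among all genes tested 30.1% were higher and 29.6% lower, and 29% were higher without that library. The GATA factor elt-1, which activates msp genes and also specifies epidermis, rose by 1.14 ± 0.07, at 51.04 ± 3.78 CPM in xpf-1 and 23.1 ± 2.47 CPM in N2. The CPEB gene cpb-1 fell by 1.16 ± 0.11, and the zinc transporter gene zipt-7.1, listed as hke-4.1, fell by 0.97 ± 0.07 (edgeR adjusted p 1.03e-09 and 1.72e-13). gskl-2, a kinase of the GSK3 class listed as gska-3, rose by 0.67 ± 0.23 (edgeR adjusted p 0.013).

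Regulators that choose sperm or oocyte fate were tested in full, and 10 of 17 fell while 4 rose, with a median log2 fold change of -0.38. For this list and the next, the shares among all genes tested were 29.6% lower and 30.1% higher. The sperm-promoting fem-3 fell to 123 ± 5.08 CPM in xpf-1, against 212.4 ± 11.4 CPM in N2. fog-1, which directs germ cells to sperm, fell by 1.19 ± 0.08, and puf-8 fell by 0.89 ± 0.06. These genes had the smallest adjusted p of the list. The 4 that rose were her-1, mog-1, mog-4 and mog-5, by 0.24 ± 0.10, 0.33 ± 0.05, 0.24 ± 0.06 and 0.49 ± 0.05. The list holds genes that favour sperm and genes that favour oocytes, so its counts do not point to either fate. The 14 genes listed around the MSP signal in oocytes and sheath include oocyte genes with other roles, such as yolk uptake. Of the 14, 8 fell and 3 rose, with a median of -0.34. Among them the Eph receptor gene vab-1, which binds MSP, fell by 0.30 ± 0.06 (edgeR adjusted p 0.000141), the oocyte maturation gene oma-2 fell by 1.28 ± 0.06, the yolk receptor gene rme-2 by 1.23 ± 0.06 and the innexin gene inx-14 by 0.86 ± 0.05. The sheath genes acy-4 and gsa-1 of this list rose by 0.28 ± 0.11 and 0.48 ± 0.13. Its genes oma-1, oma-2, lin-41 and rme-2 are also among the oocyte markers of the next paragraph. So is gld-1 of the fate list, and the lists are therefore not separate results.

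Summed markers of other tissues and stages differed between the groups, and no sum set N2 replicate 4 apart from the other N2 libraries. Beside the counts of list genes that fell or rose, 29.6% of all genes tested were called lower and 30.1% higher. Oocyte and hermaphrodite germline markers summed to 5589 to 6419 CPM in the xpf-1 libraries and 9428 to 10290 CPM in the N2 libraries, and 23 of 25 fell in xpf-1, among them the eggshell gene cpg-2 by 1.33 ± 0.06 and egg-1 by 1.15 ± 0.06. Markers of molting larvae summed to 202 to 227.8 CPM in xpf-1 and 47.03 to 60.4 CPM in N2. Of these 15 genes 11 were tested and 11 rose, with a median of 2.31, and the smallest adjusted p-values were those of hch-1 (2.99 ± 0.10), lpr-3 (2.89 ± 0.10) and the fibrillin-like fbn-1 (2.31 ± 0.09). Embryo markers summed to 296.6 to 311.2 CPM in xpf-1 and 427.3 to 461.8 CPM in N2, and 6 of 11 tested fell while 1 rose, with pal-1, ceh-51 and pes-10 falling by 0.91 ± 0.04, 0.92 ± 0.09 and 0.68 ± 0.09. Male markers summed to 15.1 to 19.1 CPM in xpf-1 and 8.87 to 11.7 CPM in N2. All 13 had a read, and 11 had more reads in xpf-1 while 2 had more in N2. Of protein-coding genes with any read, 63% had more in xpf-1. Of the 3 tested, with a median of -0.22, try-5, a seminal fluid protease, rose by 0.75 ± 0.11 (edgeR adjusted p 3.99e-07) and made up most of that sum. cwp-4 and mab-3 did not pass, with 58 and 115 reads in xpf-1 and 72 and 127 in N2. N2 replicate 4 held 9664 CPM of the oocyte markers, 53.6 CPM of the molting markers, 451.7 CPM of the embryo markers and 11.01 CPM of the male markers, each within the range of the other 5 N2 libraries. By gene, it was the highest N2 library for 0 of 25 oocyte and 2 of 15 molting markers. For embryo and male markers it was the highest for 5 of 14 and 3 of 13. The share among protein-coding genes with any N2 read was 15.9%. The part of the shifts between the groups in the sperm gene values was not tested.

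**Figure D4:**
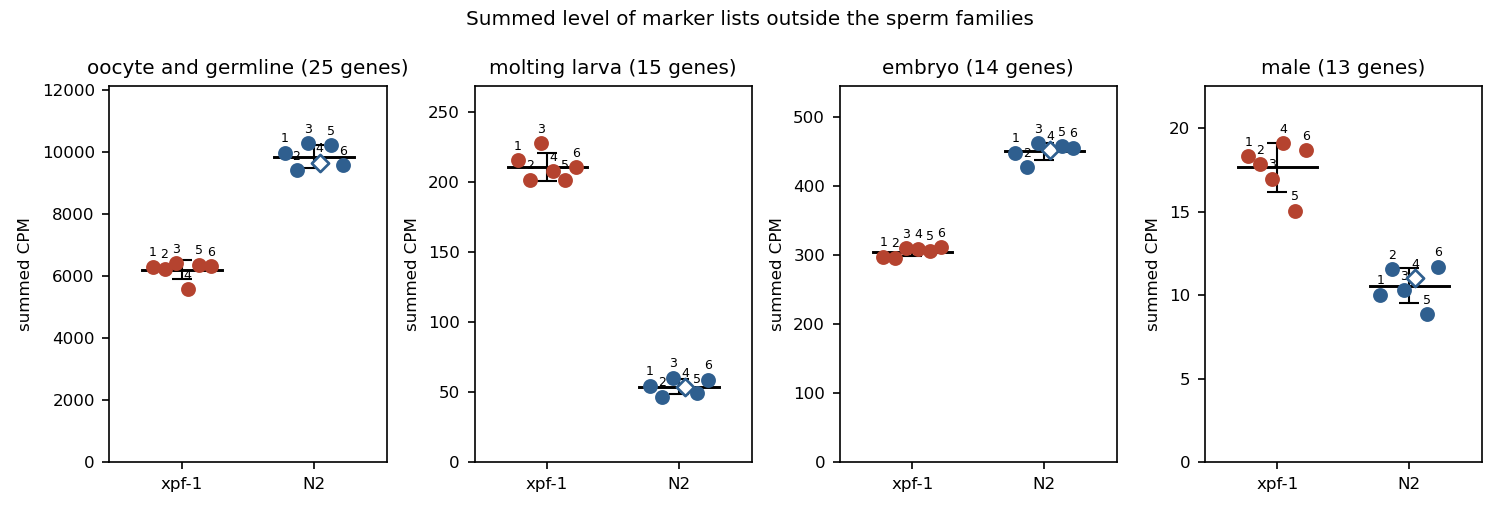
Summed CPM of 4 marker lists outside the sperm families (y axes) in the xpf-1 and N2 libraries (x axes), with replicate numbers, mean and SD. The lists separate the groups, and N2 replicate 4 (open diamond) stays with the other N2 libraries in each, unlike in the msp sum.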

How the data were processed

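RNA of whole day 7 adults was sequenced in 12 libraries, 6 of xpf-1 and 6 of N2. The authors deposited 1 table of raw read counts per gene with gene lengths, log2 fold changes and adjusted p-values. The tools named in the submitters' processing notes are HISAT2 2.1.0, CASAVA and featureCounts 1.5.0-p3, beside the genome build WBcel235. The sources used here do not say how strand and reads fitting several genes were handled. Group came from the sample labels.

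The deposited counts were fitted over the whole table with edgeR 4.0.16 in R 4.3.3 (filterByExpr, TMM factors, robust quasi-likelihood test, Benjamini-Hochberg over all genes tested, threshold 0.05), with no covariate. The procedure was tested on simulated counts with the same dispersion for all genes and no outlying library. That run therefore does not check a case like the msp genes. CPM and RPKM (CPM per kilobase of the deposited gene length) used TMM-adjusted library sizes. The deposited log2 fold changes and p-values were quoted only as the authors' deposited table. Names and overlaps came from the files and an Ensembl annotation of the same build, and 79 of 79 members matched a name table, 78 by the same symbol. No 2 libraries were the same library deposited again, with the lowest chi-square per degree of freedom at 5.8 over 30 same-group pairs.

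The members and lists were chosen with earlier results of these data known. Named were all tested members, the 5 most-read untested members of each family, and the 3 genes of smallest adjusted p in each other list. Members under the filter with few reads, gipc-2, gsp-3, gsp-4, gskl-2, vab-1, acy-4, gsa-1, cwp-4 and mab-3 were named after their values were seen. The same holds for her-1, mog-1, mog-4 and mog-5. Named only as genes shared between lists were oma-1, lin-41 and gld-1. The values of 1 member are not reported here, though it stays in the counts and sums. Alternatives were other filters, normalizations, DESeq2 1.42.0, limma-voom (limma 3.58.1), a replicate block and leaving out each library.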

Additional observations from a re-analysis of the deposited data

Results flagged for a closer look

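In 78 groups of 6 libraries, 14 had a highest library that stood far from the rest by Dixon's test at the 95% level. For normally distributed values chance gives about 1 in 20 groups, a rate that low and skewed counts need not keep. The genes share the same libraries, and the family sums contain their own members, so the groups are not separate. Of the 14, 11 were N2 replicate 4. The msp sum there was 31.8 CPM, with 1.499 to 7.41 CPM in the other N2 libraries. Single genes in that library stood at 2.99 CPM for msp-57, 2.36 CPM for msp-33, 1.78 CPM for msp-142, 1.68 CPM for msp-36, 1.68 CPM for msp-81, 1.47 CPM for msp-19, 1.26 CPM for msp-152 and 0.944 CPM for msp-53. Outside the msp family, nspd-2 stood at 1.73 CPM and spe-11 at 1.89 CPM in N2 replicate 4. The remaining 3 were xpf-1 libraries. In xpf-1 replicate 6, ssq-4 stood at 4.96 CPM and ssq-2 at 1.74 CPM, and in xpf-1 replicate 2, ssq-1 stood at 4.65 CPM.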

How the results depend on the processing

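The 5 members called higher became 21 with no low-count filter, 12 with at least 10 reads over the 12 libraries, 2 with at least 1 CPM in 6 libraries, 9 under library totals alone, 10 under upper quartile scaling and 14 with limma-voom; the cause was not tested, beyond the different number of genes that a filter admits. Among all genes tested, the share called in either direction ran from 22.4% to 31.8% over the alternatives not given in the report. Leaving out 1 library gave 4 to 19 higher, with 19 without N2 replicate 4, 10 without xpf-1 replicate 1 and 8 without xpf-1 replicate 4. The 7 called lower ranged from 5 to 7 over the libraries left out. Of the 12 calls, 8 were kept under every alternative that gave a value, no direction reversed, and 16 of the 21 members that did not pass did so under at least 1 alternative. Without its most-read member the log2 ratio of the summed CPM was 0.64 for ssp and -0.33 for spe. With the replicate number as a block 14 members were called higher, 8 of them msp genes, and 7 lower, but same-numbered libraries deviated together by correlations of only -0.00 to 0.12 and 2 of 12 libraries matched best with their own number, so the numbers do not pair the samples. Most members had under 100 reads per library, and members under the filter were not testable at this depth.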
